A study of Mus musculus with 10 samples.

Results

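The genes described here are 10 genes of oxygen sensing and lactate handling, chosen by symbol from the 24052 gene symbols counted in mouse liver. They are *Hif1a* and *Epas1*, *Egln1*, *Egln3* and *Vhl*, *Vegfa*, *Ldha* and *Ldhb*, and *Slc16a1* and *Slc16a3*. RNA sequencing was carried out on the livers of 10 mice fed ad libitum, C57BL/6 by their labels and from a knockout line backcrossed to C57BL/6N, 5 wild-type and 5 with a liver-specific knockout of *Ndrg3* (Ndrg3 LKO), with 1 library per liver. In the knockout mice exon 4 of *Ndrg3*, flanked by loxP sites, was removed by a Cre recombinase under the albumin promoter. This promoter is known for its activity in hepatocytes, and which cells of these livers had lost the exon was not measured. The controls were littermates named wild-type, and whether they carried a floxed allele or Cre is not stated in the sources used here. The animals were 8 to 10 weeks old by the description of the sampling and 10 to 12 weeks old by a figure legend. A legend for the expression data of these livers counts 4 Ndrg3 LKO mice, and how these map to the 5 knockout libraries is not stated there. Between 20872262 and 24747870 reads were counted per wild-type liver and between 23474693 and 30450057 per Ndrg3 LKO liver.

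Hypoxia-inducible factors (HIF) are transcription factors made of an oxygen-labile alpha subunit, encoded by *Hif1a* or *Epas1*, and the stable partner ARNT. When oxygen is present, prolyl hydroxylases of the EGLN (PHD) family mark the alpha subunit, which the VHL protein then recognizes and sends to the proteasome. The amount of HIF is therefore set largely on the protein, which RNA counts do not show. Among the genes HIF is known to activate are *Vegfa*, *Ldha*, *Slc16a3* and, as negative feedback, *Egln3*. Lactate dehydrogenase converts pyruvate and lactate into each other, and the monocarboxylate transporters MCT1 and MCT4, encoded by *Slc16a1* and *Slc16a3*, carry lactate across the plasma membrane. The liver takes up lactate from the blood as a substrate for gluconeogenesis. NDRG3 itself is known as a protein that is hydroxylated by an EGLN enzyme and stabilized by lactate.

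In Ndrg3 LKO livers, *Egln3*, *Ldhb*, *Slc16a1* and *Ldha* were higher than in wild-type livers, by 40.95-, 4.23-, 2.29- and 2.05-fold. Both HIF alpha subunits, *Egln1*, *Vhl* and *Vegfa* did not pass the test. Of the 10 genes, 9 had at least 1 read per 1000000 counted reads (CPM) in all 10 livers and were tested; *Slc16a3* was too low. Of these 9 genes 4 were higher and 0 lower in Ndrg3 LKO livers, where 25.6% of all 11208 genes tested were higher and 23.0% lower (edgeR's quasi-likelihood test, Benjamini-Hochberg adjusted p under 0.05). Every Ndrg3 LKO liver lay above every wild-type liver for 2 of the 9 genes, *Egln3* and *Ldha*, and below for 0, as was the case for 15.6% and 15.9% of all genes tested. Values per liver are CPM on library sizes adjusted by the TMM method of edgeR (TMM-normalized CPM), a scale on which the genes tested had a median log2 fold change of 0.03.

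Ndrg3 LKO replicate 5 stood apart from the other knockout livers. The 20 most abundant genes took 26.6% of its counts, against 16.3% to 17.3% in Ndrg3 LKO replicates 1 to 4 and 26.2% to 28.0% in the wild-type livers. Its *Alb* level, 108000 TMM-normalized CPM, lay within the wild-type range of 80610 to 115900, while Ndrg3 LKO replicates 1 to 4 had 20960 to 26380. Of the 5 knockout livers it was the lowest for 6 of the 10 genes (*Hif1a*, *Egln3*, *Vegfa*, *Ldha*, *Ldhb* and *Slc16a1*) and the highest for *Slc16a3*. Fold changes of the 9 genes tested and of the pathway genes described are therefore given with it and, as the 9 livers, without it. Without it, the same 4 genes were higher and 0 lower, beside 28.4% and 27.2% of 11446 genes tested, and *Ldhb* and *Slc16a1* joined *Egln3* and *Ldha* as genes whose knockout livers all lay above the wild-type livers, beside 22.4% of all genes tested above and 22.3% below.

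*Ndrg3*, the targeted gene, had 17.8, 17.8, 16.0, 19.1 and 21.9 TMM-normalized CPM in wild-type replicates 1 to 5 and 7.08, 8.06, 9.18, 7.79 and 8.26 in Ndrg3 LKO replicates 1 to 5. All knockout livers, replicate 5 included, lay below all wild-type livers. Its log2 fold change was -1.20 (SE 0.13, edgeR adjusted p = 3.87e-05), and -1.22 (SE 0.14, edgeR adjusted p = 2.2e-05) in the 9 livers. The counts cover the whole gene, so the deleted exon was not measured on its own. Near-identical stretches elsewhere in the genome cover 15.7% of its transcript, and reads from those parts are uncertain. In whole liver, a lower level can come from fewer cells that express a gene or from less RNA per cell, and these cannot be told apart here. Hepatocyte markers were lower and markers of macrophages, endothelial cells and stellate cells higher in Ndrg3 LKO livers, with values given after those of the genes, and their part in the results was not tested.

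The promoters of the 4 genes that were higher are shown because HIF is known to bind DNA at a short core sequence. The 250 bases before the start of a single protein-coding transcript per gene (in GENCODE, the one with the lowest number in its name) were read from mm9 in the direction of the gene, and capitals mark matches to ACGTG or GCGTG on either strand (CACGT or CACGC when the match is on the other strand). CACGTG reads as ACGTG on both strands and counts as a pair of overlapping matches. For *Ldha*, *Hif1a* and *Vegfa* the annotation also holds a transcript that starts further upstream, whose window was not searched.
Egln3, chr12:55304848-55305097, minus strand: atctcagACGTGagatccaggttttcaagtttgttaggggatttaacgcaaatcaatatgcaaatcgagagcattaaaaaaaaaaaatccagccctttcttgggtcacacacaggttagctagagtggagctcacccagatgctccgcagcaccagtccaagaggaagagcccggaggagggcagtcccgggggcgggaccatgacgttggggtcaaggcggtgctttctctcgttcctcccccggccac
Ldha, chr7:54100959-54101208, plus strand: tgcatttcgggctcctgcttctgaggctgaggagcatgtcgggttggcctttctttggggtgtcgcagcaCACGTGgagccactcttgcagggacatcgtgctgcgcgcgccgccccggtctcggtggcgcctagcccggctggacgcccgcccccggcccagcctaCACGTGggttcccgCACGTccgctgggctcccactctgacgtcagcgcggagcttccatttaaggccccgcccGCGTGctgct
Ldhb, chr6:142456478-142456727, minus strand: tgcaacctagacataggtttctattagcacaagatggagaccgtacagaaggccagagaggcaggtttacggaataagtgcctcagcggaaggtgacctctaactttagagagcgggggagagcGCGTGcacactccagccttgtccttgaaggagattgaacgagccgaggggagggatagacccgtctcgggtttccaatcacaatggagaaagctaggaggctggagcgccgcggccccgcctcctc
Slc16a1, chr3:104442341-104442590, plus strand: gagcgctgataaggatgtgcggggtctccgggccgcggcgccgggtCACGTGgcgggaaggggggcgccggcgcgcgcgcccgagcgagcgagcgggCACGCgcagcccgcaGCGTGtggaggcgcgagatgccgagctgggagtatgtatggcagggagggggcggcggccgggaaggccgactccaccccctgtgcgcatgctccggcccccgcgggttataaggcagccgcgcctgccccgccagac

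*Ldha* held 6 matches, 4 of them in 2 copies of CACGTG, and *Slc16a1* held 4 matches, with 1 copy of CACGTG. *Egln3* and *Ldhb* held 1 match each, ACGTG at 243 bases and GCGTG at 126 bases before the start. Among the genes that did not pass the test, *Hif1a* held 3 matches and *Egln1* 2, and no match was found in this window for *Epas1*, *Vhl*, *Vegfa* or *Slc16a3*. At least 1 match was present in 55.7% of the 10359 promoters of tested genes, at least 4 in 4.86%, at least 5 in 2.06% and CACGTG in 8.42%. A match describes the letters only, and binding was not measured.

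In the plot of the 10 genes by liver, Ndrg3 LKO replicate 5 is drawn apart from the other knockout livers.

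**Figure D1:**
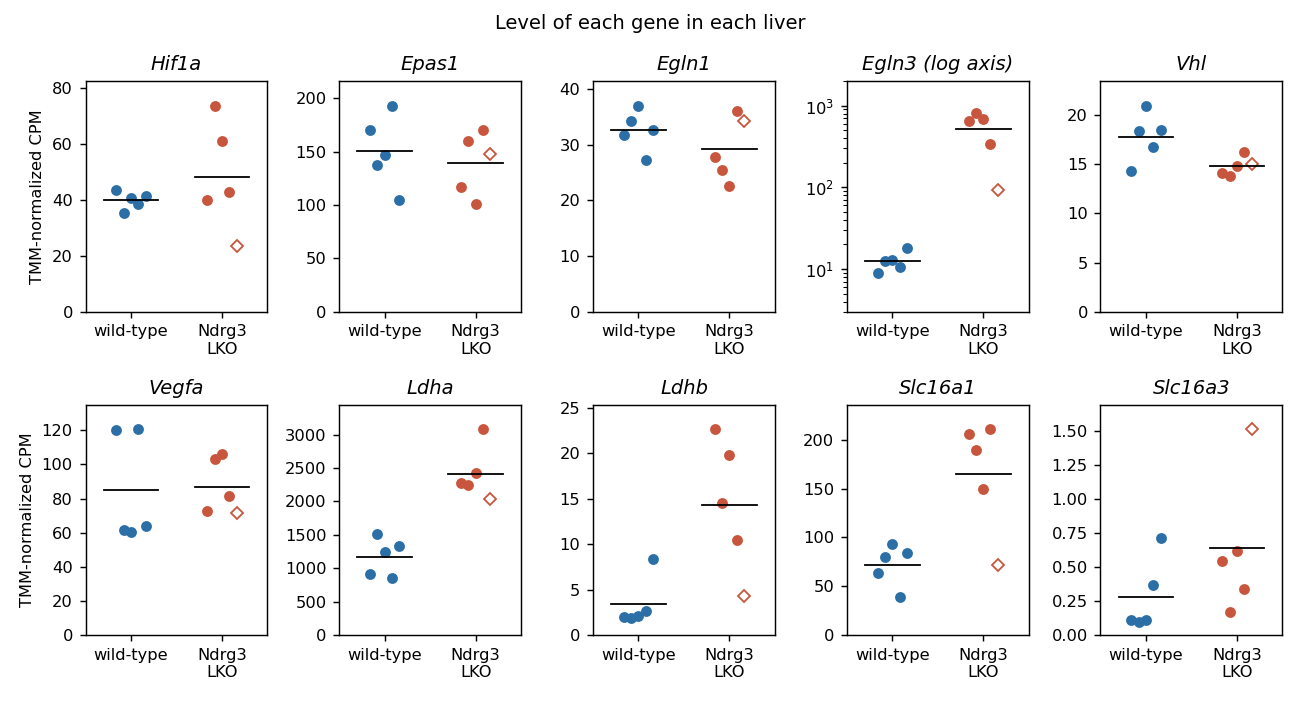
TMM-normalized CPM of the 10 genes in each liver, on axes from 0 except for *Egln3*, which has a log axis; filled blue points are wild-type livers, filled red points Ndrg3 LKO replicates 1 to 4, the open diamond is Ndrg3 LKO replicate 5 and lines are group means. The groups are fully apart for *Egln3* and *Ldha*; for *Ldhb* and *Slc16a1* the open diamond, at 4.34 and 71.9, lies among the wild-type livers.

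*Hif1a* encodes HIF-1 alpha and lies at chr12:75002362-75048517 (mm9, plus strand). It had 43.5, 35.3, 40.7, 38.4 and 41.3 TMM-normalized CPM in wild-type and 40.0, 73.6, 61.0, 42.9 and 23.3 in Ndrg3 LKO livers. Replicates 2 and 3 of the knockout lay above all wild-type livers and replicate 5 below all of them, so the knockout group spread on both sides of the wild-type group. The fit gave a log2 fold change of 0.28 (SE 0.24, edgeR adjusted p = 0.372). Without Ndrg3 LKO replicate 5 it was 0.44 (SE 0.17) with an edgeR adjusted p of 0.05003, just above the threshold. Leaving out Ndrg3 LKO replicate 2 gave 0.069 (edgeR adjusted p = 0.81) and leaving out replicate 3 gave 0.18 (edgeR adjusted p = 0.598). With libraries scaled by their total counts *Hif1a* was at 0.87 and passed the test (edgeR adjusted p = 0.028). On that scale the median of all genes tested was 0.56. An annotated transcript, *Gm15283*, overlaps *Hif1a* on the opposite strand, and reads of the pair cannot be assigned with certainty because the strand setting of the counting is not given in the sources used here.

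*Epas1*, the gene of HIF-2 alpha at chr17:87153247-87232750 (plus strand), had 171, 138, 147, 193 and 105 TMM-normalized CPM in wild-type and 117, 160, 101, 171 and 147 in Ndrg3 LKO livers. The groups overlapped over most of their range. Its log2 fold change was -0.11 (SE 0.19, edgeR adjusted p = 0.644), and -0.15 (SE 0.20, edgeR adjusted p = 0.559) in the 9 livers. With libraries scaled by their total counts *Epas1* changed sign, to 0.40 (edgeR adjusted p = 0.1275), where the median of all genes tested was 0.56. Within each liver, *Hif1a* per kilobase of exon stood at 0.179 to 0.354 of *Epas1* in wild-type and at 0.142 to 0.544 in Ndrg3 LKO livers. *Epas1* was thus the more abundant alpha subunit transcript per length in all 10 livers, and the ranges of the ratio overlapped.

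Among the prolyl hydroxylases, which mark the HIF alpha subunits, *Egln3* (PHD3) was higher and *Egln1* (PHD2), the main oxygen sensor of most cells, did not pass the test. *Egln3* lies at chr12:55279968-55304847 (minus strand). Its raw counts were 159, 253, 228, 233 and 302 in wild-type replicates 1 to 5 and 22428, 33577, 26380, 11772 and 1956 in Ndrg3 LKO replicates 1 to 5. As TMM-normalized CPM these were 8.94, 12.4, 12.7, 10.7 and 18.0 in wild-type and 646, 815, 680, 336 and 92.3 in Ndrg3 LKO livers. Even the lowest knockout liver, replicate 5, exceeded the highest wild-type liver, and it lay well below the other knockout livers. The log2 fold change was 5.36 (SE 0.53, edgeR adjusted p = 2.21e-05), a 40.95-fold difference and the 20th largest rise among the 11208 genes tested. In the 9 livers it was 5.61 (SE 0.29, edgeR adjusted p = 1.16e-07), or 48.95-fold. Its 250-base promoter, printed above, held 1 match to the HIF core.

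*Egln1*, at chr8:127432496-127473154 (minus strand), had 31.8, 34.3, 37.0, 27.3 and 32.7 TMM-normalized CPM in wild-type and 27.8, 25.5, 22.6, 36.1 and 34.2 in Ndrg3 LKO livers. Ndrg3 LKO replicates 2 and 3 lay below all wild-type livers and the other 3 knockout livers among them. In the fit the log2 fold change was -0.16 (SE 0.15, edgeR adjusted p = 0.394), and -0.23 (SE 0.15, edgeR adjusted p = 0.205) in the 9 livers. Sequence elsewhere in the genome with at least 95% identity covers 25.5% of its transcript, which makes its counts somewhat uncertain. With 1 liver left out its value ran from -0.24 to -0.078, and that of *Epas1* from -0.23 to -0.017. With libraries scaled by their total counts *Egln1* changed sign, to 0.36 (edgeR adjusted p = 0.0512), where the median of all genes tested was 0.56.

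The third prolyl hydroxylase, *Egln2*, was named after its values were seen, to set the family side by side. Its log2 fold change was -0.53 (SE 0.26, edgeR adjusted p = 0.11), and without Ndrg3 LKO replicate 5 it was -0.90 (SE 0.15, edgeR adjusted p = 0.000344) and the gene passed the test. Per kilobase of exon, *Egln3* made up 8.17%, 8.64%, 9.70%, 9.45% and 12.9% of the sum of *Egln1*, *Egln2* and *Egln3* in the wild-type livers. In the Ndrg3 LKO livers it made up 89.4%, 93.2%, 91.9%, 80.1% and 39.3%. The least abundant member of the family in wild-type livers was the most abundant in Ndrg3 LKO replicates 1 to 4, whereas in replicate 5 *Egln2* was still the most abundant.

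**Figure D2:**
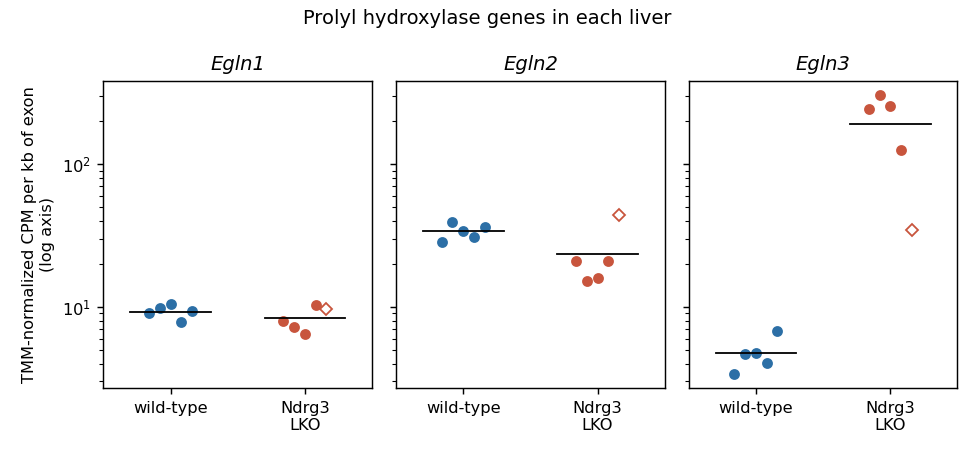
TMM-normalized CPM per kilobase of exon (log axis) of the prolyl hydroxylase genes in each liver; blue points are wild-type, filled red points Ndrg3 LKO replicates 1 to 4, the open diamond is Ndrg3 LKO replicate 5 and lines are group means. *Egln3* lies at 3.36 to 6.76 in wild-type livers and at 34.7 to 306 in Ndrg3 LKO livers, while *Egln1* stays between 6.42 and 10.5 in all 10 livers.

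*Vhl*, the substrate receptor of the ubiquitin ligase for hydroxylated HIF, lies at chr6:113573953-113581627 (plus strand). It had 14.3, 18.4, 21.0, 16.8 and 18.5 TMM-normalized CPM in wild-type and 14.1, 13.8, 14.8, 16.3 and 15.1 in Ndrg3 LKO livers. Ndrg3 LKO replicates 1 and 2 lay below all wild-type livers, and the knockout livers were close to each other. This amounted to a log2 fold change of -0.27 (SE 0.13, edgeR adjusted p = 0.0984), and -0.28 (SE 0.13, edgeR adjusted p = 0.0888) in the 9 livers. It passed the threshold when wild-type replicate 1, the lowest wild-type liver, was left out (-0.35, edgeR adjusted p = 0.0369). With libraries scaled by their total counts *Vhl* changed sign, to 0.26 (edgeR adjusted p = 0.179), where the median of all genes tested was 0.56.

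*Vegfa*, the angiogenic growth factor gene at chr17:46153942-46169326 (minus strand), had 120, 61.7, 60.3, 121 and 63.8 TMM-normalized CPM in wild-type and 72.6, 103, 106, 81.8 and 71.7 in Ndrg3 LKO livers. Wild-type replicates 1 and 4 had nearly the same high level, the other 3 wild-type livers a low one, and all knockout livers lay in between. The fitted log2 fold change was 0.03 (SE 0.24, edgeR adjusted p = 0.925), and 0.08 (SE 0.24, edgeR adjusted p = 0.797) in the 9 livers. The wild-type spread (SD 32.0 around a mean of 85.3) was larger than the difference between the means.

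The lactate dehydrogenase genes *Ldha* and *Ldhb*, whose subunits make up the tetrameric enzyme, were both higher in Ndrg3 LKO livers. *Ldha*, the gene of the A (muscle type) subunit, lies at chr7:54096845-54110997 (plus strand). It had 911, 1514, 1246, 862 and 1341 TMM-normalized CPM in wild-type and 2283, 2243, 2421, 3076 and 2034 in Ndrg3 LKO livers. The groups did not overlap, with replicate 5 the lowest knockout liver and replicate 4 the highest. The fit gave a log2 fold change of 1.04 (SE 0.20, edgeR adjusted p = 0.00162), a 2.05-fold difference, and 1.08 (SE 0.20, edgeR adjusted p = 0.000667) in the 9 livers. Its promoter, with 6 matches to the HIF core, had the most of the 4 printed above. Near-identical stretches elsewhere in the genome (3 of them) cover 19.2% of its transcript, which makes its counts somewhat uncertain.

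*Ldhb*, the gene of the B (heart type) subunit at chr6:142438769-142456477 (minus strand), was present at far lower levels. It had 35, 40, 38, 58 and 141 counts in wild-type and 786, 598, 767, 369 and 92 in Ndrg3 LKO livers. As TMM-normalized CPM these were 1.97, 1.96, 2.12, 2.67 and 8.41 in wild-type and 22.6, 14.5, 19.8, 10.5 and 4.34 in Ndrg3 LKO livers. Wild-type replicate 5 stood above the other wild-type livers and also above Ndrg3 LKO replicate 5, so 4 of the 5 knockout livers lay above all wild-type livers. The fitted log2 fold change was 2.08 (SE 0.50, edgeR adjusted p = 0.00524), a 4.23-fold difference, and 2.30 (SE 0.42, edgeR adjusted p = 0.00076) in the 9 livers. Leaving out wild-type replicate 5 instead gave 2.701 (edgeR adjusted p = 0.000817). A single near-identical copy elsewhere in mm9 covers 98.5% of the *Ldhb* transcript at 97.6% identity, so its counts are uncertain.

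Per kilobase of exon, *Ldhb* was 0.409%, 0.245%, 0.322%, 0.585% and 1.18% of the sum of both lactate dehydrogenase genes in the wild-type livers. In the Ndrg3 LKO livers its share was 1.85%, 1.21%, 1.53%, 0.646% and 0.404%. The shares overlapped between the groups, and they carry the uncertainty of the *Ldhb* counts.

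*Slc16a1*, the gene of the lactate transporter MCT1 at chr3:104442591-104462385 (plus strand), was higher in Ndrg3 LKO livers. It had 64.1, 80.1, 93.2, 39.2 and 83.9 TMM-normalized CPM in wild-type and 206, 189, 150, 210 and 71.9 in Ndrg3 LKO livers. Ndrg3 LKO replicates 1 to 4 lay above all wild-type livers, and replicate 5 lay near their mean. Its log2 fold change was 1.20 (SE 0.30, edgeR adjusted p = 0.00592), a 2.29-fold difference, and 1.38 (SE 0.22, edgeR adjusted p = 0.000292), or 2.60-fold, in the 9 livers. *Bsg* (basigin), the chaperone that brings MCT1 to the membrane, was named after its values were seen and had a log2 fold change of -0.09 (SE 0.17, edgeR adjusted p = 0.688), and -0.23 (SE 0.15) in the 9 livers.

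*Slc16a3*, the gene of MCT4 at chr11:120809794-120822182 (plus strand), was barely expressed. It had 2, 2, 2, 8 and 12 counts in wild-type and 19, 7, 24, 12 and 32 in Ndrg3 LKO livers, against a floor of 3 counts per library. The groups overlapped, with Ndrg3 LKO replicate 5 the highest. It was not tested with the filter on low counts. In the fit without that filter its log2 fold change was 1.09 (SE 0.65, edgeR adjusted p = 0.212) and it did not pass the test. *Csnk1d* overlaps it on the opposite strand, which makes these few counts uncertain. Per kilobase, *Slc16a1* exceeded *Slc16a3* by 128 to 1000 times in wild-type and by 57.2 to 1340 times in Ndrg3 LKO livers, ratios that rest on as few as 2 *Slc16a3* counts.

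**Figure D3:**
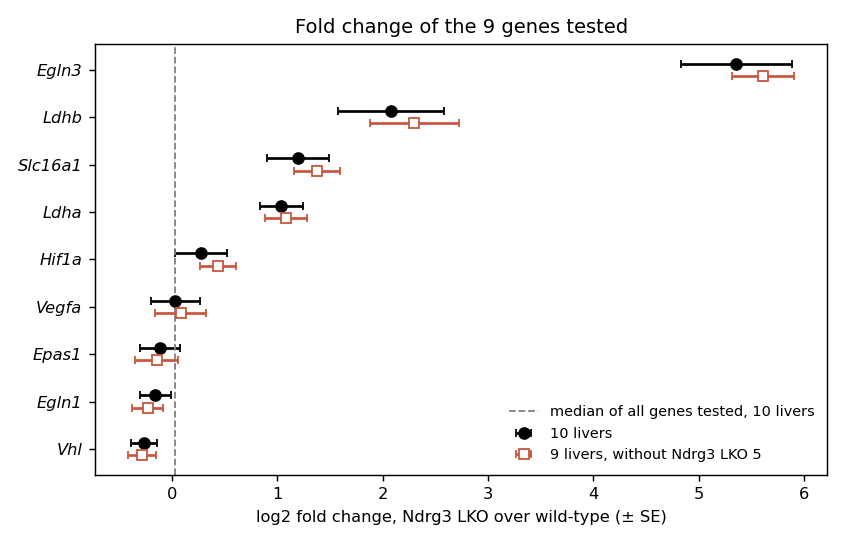
Log2 fold change of the 9 genes tested (Ndrg3 LKO over wild-type; bars are ± 1 SE of the edgeR fit), from all 10 livers as black circles and from the 9 livers without Ndrg3 LKO replicate 5 as open red squares; the dashed line is the median of all genes tested, 0.03. *Egln3* stands at 5.36 and 5.61, the other 3 genes that passed the test between 1.04 and 2.30, and the remaining 5 between -0.28 and 0.44.

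Ordered by mean TMM-normalized CPM per kilobase of exon, *Ldha* led in both groups, with 394 ± 94.2 (SD, n = 5) in wild-type and 809 ± 133 in Ndrg3 LKO livers. In wild-type livers *Epas1* (28.4 ± 6.27), *Vegfa* (19.9 ± 7.44) and *Slc16a1* (16.3 ± 4.79) followed, then *Egln1*, *Hif1a*, *Vhl*, *Egln3*, *Ldhb* and *Slc16a3*. The values of neighbours in this order overlapped between livers, except between *Ldha* and *Epas1*, *Egln1* and *Hif1a*, and *Ldhb* and *Slc16a3*. In Ndrg3 LKO livers *Egln3* moved from the eighth place to the second, at 193 ± 110, and *Ldhb* from the ninth to the sixth, at 9.15 ± 4.64. Without Ndrg3 LKO replicate 5, *Egln3* had 233 ± 76.1 (n = 4) and overlapped neither *Ldha* nor *Slc16a1*.

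The genes whose levels followed those of *Hif1a* most closely over the 10 livers were *Ppp4r2* (Pearson r = 0.977 of log2 TMM-normalized CPM plus 1), *Prkci* (r = 0.954) and *B230219D22Rik* (r = 0.948). Those closest to *Ldha* were *Slc25a39* (r = 0.988), *St6galnac6* (r = 0.979) and *Nudt18* (r = 0.979). The 10 points share the difference between the groups, and the *Ldha* set carries it: *Slc25a39* rose by 0.71 on the log2 scale (edgeR adjusted p = 0.00274), whereas *Ppp4r2* had a log2 fold change of 0.28 (edgeR adjusted p = 0.255).

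Markers of the cell types of the liver were set beside these genes. Of 10 hepatocyte markers 9 were found by the symbol searched. *Tf* was not found, and no other symbol was tried for that gene. Of the 9, 7 were lower and 0 higher in Ndrg3 LKO livers (median log2 fold change -1.30), beside 23.0% and 25.6% of all genes tested. Their summed level, of which *Alb* was the most abundant, was 174600, 132900, 149500, 139100 and 138600 TMM-normalized CPM in wild-type and 42370, 37450, 36330, 36540 and 147500 in Ndrg3 LKO livers. Of the knockout livers only replicate 5 was within the wild-type range of this sum, of which *Alb* alone made up 57.7% to 73.2% in each liver. Taken singly, 5 of the 9 markers were within the wild-type range in replicate 5, and *Apoa1*, *Apob*, *Fgb* and *Hnf4a* lay below all wild-type livers. The counts for macrophage, endothelial and stellate cell markers stand beside the same 25.6% higher and 23.0% lower. All 10 macrophage markers were higher, with *Clec4f* the most abundant, and their sum was 111, 263, 132, 144 and 165 in wild-type and 709, 237, 721, 371 and 304 in Ndrg3 LKO livers. Of 10 endothelial markers, led by *Clec4g*, 9 were higher and 0 lower, and the sum was 110, 93.8, 100, 124 and 105 in wild-type and 237, 187, 212, 189 and 193 in Ndrg3 LKO livers. Of 10 markers of stellate cells and fibroblasts, led by *Dcn*, 7 were higher and 0 lower, and the sum was 165, 130, 166, 117 and 185 in wild-type and 329, 254, 322, 304 and 253 in Ndrg3 LKO livers. The endothelial and the stellate cell sums of all 5 knockout livers lay above those of all wild-type livers, whereas the macrophage sums overlapped. *Lyve1* among the endothelial and *Col1a1*, *Acta2* and *Hgf* among the stellate cell markers were under 1 CPM in at least 1 wild-type liver and reached it in all Ndrg3 LKO livers, and *Lyve1*, *Col1a1* and *Hgf* are among the genes counted as higher.

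Of 7 cholangiocyte markers tested 2 were higher and 1 lower, beside 25.6% and 23.0% of all genes. *Krt19*, *Krt7*, *Epcam* and *Prom1*, the last one of the higher genes, were under 1 CPM in at least 1 wild-type liver. The sum of these markers, led by *Spp1*, ran from 50.3 to 81.6 in wild-type and from 63.0 to 251 in Ndrg3 LKO livers. Of 7 lymphocyte markers only *Ptprc*, the general leukocyte antigen, could be tested, and it was higher; the sum of the list was 2.99 to 4.85 in wild-type and 4.64 to 14.0 in Ndrg3 LKO livers. Of 5 erythroid markers only *Alas2*, the erythroid enzyme of heme synthesis, could be tested. It was lower, and the list's sum was 141 to 165 in wild-type and 4.44 to 39.4 in Ndrg3 LKO livers. *Hba-a1* and *Hbb-b1*, globin genes with near-identical neighbours and so uncertain, were listed at 0 counts in all livers, which sets no upper limit where reads shared with those neighbours were not assigned. The part of other cell types in the values of the genes above and in those of the lists that follow was not tested. Without Ndrg3 LKO replicate 5 the counts stood at 7 lower for hepatocyte markers, and at 10, 8 and 7 higher for macrophage, endothelial and stellate cell markers, beside 28.4% higher and 27.2% lower of all genes tested.

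**Figure D4:**
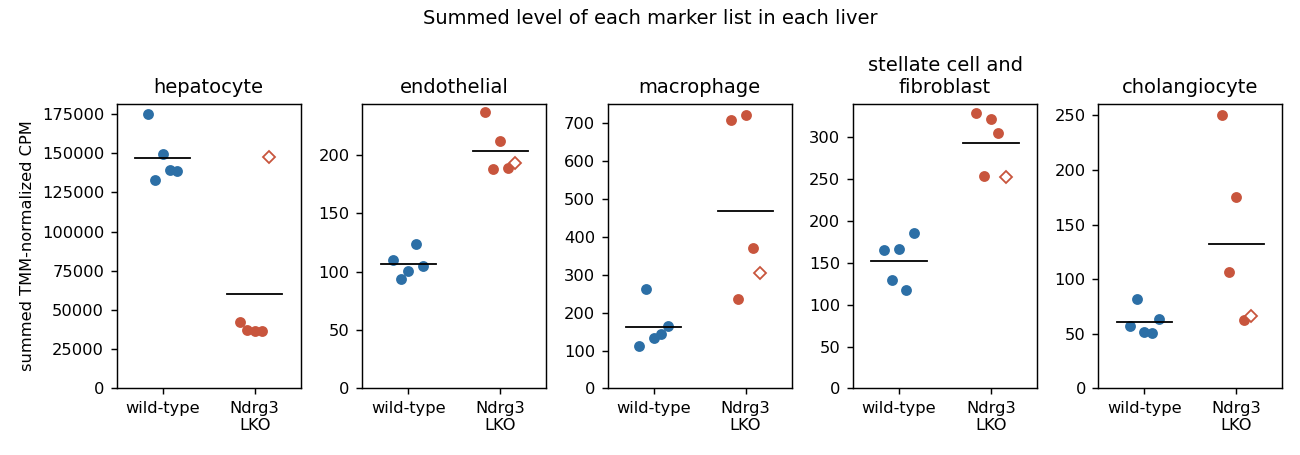
Summed TMM-normalized CPM of the markers of 5 cell types (each panel from 0 on its own scale), with 1 point per liver, filled blue for wild-type and filled red for Ndrg3 LKO replicates 1 to 4, an open diamond for Ndrg3 LKO replicate 5 and a line at each group mean. The hepatocyte sum of the open diamond, 147500 and mostly *Alb*, sits among the wild-type livers, while its endothelial and stellate cell sums sit with the other knockout livers.

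The rest of the oxygen-sensing pathway was taken from lists of known genes. Of 15 partners and regulators of HIF 13 were tested, and 1 was higher and 2 were lower in Ndrg3 LKO livers, beside 25.6% and 23.0% of all genes tested; in the 9 livers 1 was higher and 3 were lower, beside 28.4% and 27.2%. The median log2 fold change was 0.14, against 0.03 for all genes. *Tceb2*, the gene of elongin B in the VHL ubiquitin ligase, rose from 111 ± 20.8 to 189 ± 43.2 TMM-normalized CPM (mean ± SD, n = 5 and 5), a log2 fold change of 0.77 (SE 0.19, edgeR adjusted p = 0.00607), and 0.71 (SE 0.20) in the 9 livers. *Os9*, whose protein is known from the degradation of misfolded proteins in the endoplasmic reticulum and for binding HIF-1 alpha, had a log2 fold change of -0.82 (SE 0.20, edgeR adjusted p = 0.00643), and of -1.05 (SE 0.14) in the 9 livers. With scaling by total counts *Os9* was at -0.34 and did not pass the test (edgeR adjusted p = 0.078). *Hif1an*, the asparaginyl hydroxylase that blocks HIF activity, had a log2 fold change of -0.49 (SE 0.12, edgeR adjusted p = 0.00667) and of -0.51 (SE 0.13) in the 9 livers; with scaling by total counts it was 0.04. *Arnt*, the partner of both alpha subunits, was named after its values were seen and had a log2 fold change of 0.23 (SE 0.23, edgeR adjusted p = 0.429), and 0.36 (SE 0.19) in the 9 livers.

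Of 16 glycolytic genes known as HIF targets 14 were tested, and 8 were higher and 3 lower, beside 25.6% and 23.0% of all genes; the same 11 were called in the 9 livers. The higher genes were *Pfkp*, *Pkm*, *Aldoa*, *Hk1*, *Tpi1*, *Pgam1*, *Gapdh* and *Gpi1*, and the lower genes *Pdk1*, *Slc2a1* and *Pfkl*. The median log2 fold change was 0.66. *Pfkp*, the platelet type phosphofructokinase, rose from 0.862 ± 0.296 to 11.2 ± 4.19 TMM-normalized CPM, with a log2 fold change of 3.70 (SE 0.35, edgeR adjusted p = 1.78e-05), and 3.66 (SE 0.36) in the 9 livers. *Pkm*, the pyruvate kinase of tissues other than the adult hepatocyte, rose from 9.02 ± 3.60 to 43.3 ± 9.34, with a log2 fold change of 2.27 (SE 0.25, edgeR adjusted p = 3.99e-05), and 2.31 (SE 0.25) in the 9 livers. *Pfkp*, *Hk1* and *Hk2* were under 1 CPM in at least 1 wild-type liver and reached it in all Ndrg3 LKO livers. *Pfkp*, with 24, 13, 11, 19 and 14 counts in wild-type livers, passed the filter on low counts only through the knockout livers, where it is high. In the fit without that filter its log2 fold change was 3.67 (edgeR adjusted p = 6.88e-06). *Hk1*, with 26, 39, 20, 36 and 20 counts in wild-type livers, also passed the filter only through the knockout livers. In the fit without the filter *Hk1* was at 0.85 (edgeR adjusted p = 0.0161). The macrophage, endothelial and stellate cell sums given above were also higher. *Gapdh* has 52 near-identical stretches elsewhere in the genome and is uncertain, and *Eno1*, with 4 near-identical copies covering 85.6% of its transcript, had at most 2 counts in any liver and was not tested. Of the genes on the pathway lists, only these and *Ndrg3* were searched for such copies.

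*Pdk1* and *Slc2a1* were the genes of this list that fell most. *Pdk1*, a kinase that shuts off pyruvate dehydrogenase and a known HIF-1 target, fell from 94.4 ± 13.3 to 23.3 ± 6.21 TMM-normalized CPM, with a log2 fold change of -2.02 (SE 0.18, edgeR adjusted p = 1.2e-05), and -2.21 (SE 0.13) in the 9 livers. It had 104, 75.3, 100, 107 and 86.2 in wild-type and 21.0, 20.1, 21.2, 19.7 and 34.3 in Ndrg3 LKO livers, all below the wild-type livers. *Slc2a1*, the glucose transporter GLUT1, had 23.9, 21.7, 18.0, 22.5 and 17.8 in wild-type and 7.08, 5.63, 7.17, 5.59 and 21.8 in Ndrg3 LKO livers. Ndrg3 LKO replicate 5 lay within the wild-type range and the other 4 knockout livers far below it. The log2 fold change was -1.15 (SE 0.35, edgeR adjusted p = 0.0175) and, without that liver, -1.72 (SE 0.15, edgeR adjusted p = 3.4e-06).

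Of 28 other known HIF targets 17 were tested, and 5 were higher and 4 lower, beside 25.6% and 23.0% of all genes (median log2 fold change -0.14). In the 9 livers 5 were higher and 8 lower, beside 28.4% and 27.2% of all genes. The higher genes were *Loxl2*, *Hmox1*, *Adm*, *Bhlhe40* and *Ndrg1*, and the lower genes *Ccng2*, *Bnip3*, *Bnip3l* and *Mxi1*, the last at 0.11 when libraries were scaled by their total counts. *Loxl2*, a collagen crosslinking enzyme, rose from 0.908 ± 0.339 to 3.44 ± 1.29 TMM-normalized CPM, with a log2 fold change of 1.91 (SE 0.32, edgeR adjusted p = 0.000684), and 1.69 (SE 0.30) in the 9 livers. Like *Adm*, it was under 1 CPM in at least 1 wild-type liver. With 10, 13, 25, 19 and 18 counts in wild-type livers, *Loxl2* passed the filter on low counts only through the knockout livers, where it is high. In the fit without that filter its log2 fold change was 1.87 (edgeR adjusted p = 0.000731). *Adm*, with 19, 24, 32, 28 and 20 counts in wild-type livers, also passed the filter only through the knockout livers. In the fit without the filter *Adm* was at 0.85 (edgeR adjusted p = 0.0391). *Hmox1*, heme oxygenase 1, had a log2 fold change of 0.99 (SE 0.24, edgeR adjusted p = 0.00511), and 0.88 (SE 0.24) in the 9 livers. *Ccng2*, a cyclin of arrested cells, had one of -1.33 (SE 0.23, edgeR adjusted p = 0.000717), and *Bnip3*, a mitophagy receptor, one of -1.16 (SE 0.24, edgeR adjusted p = 0.00197); in the 9 livers they had -1.42 (SE 0.24) and -1.33 (SE 0.22). The 11 genes not tested included *Epo*, with 3 counts in Ndrg3 LKO replicate 5 and 0 in the other livers. Also untested was *Ankrd37*, named after its values were seen, with 65 counts in Ndrg3 LKO replicate 5 and at most 14 in the other livers.

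Of 22 further genes of lactate and pyruvate handling 16 were tested, and 2 were higher and 6 lower, beside 25.6% and 23.0% of all genes (median log2 fold change -0.13); the same 8 were called in the 9 livers. *Ldhd*, the mitochondrial D-lactate dehydrogenase, fell most of this list. It had 194, 201, 148, 214 and 187 TMM-normalized CPM in wild-type and 21.7, 19.8, 22.9, 14.4 and 44.0 in Ndrg3 LKO livers. All knockout livers lay far below the wild-type livers, with replicate 5 the highest of them. This amounted to a log2 fold change of -2.95 (SE 0.27, edgeR adjusted p = 1.46e-05), and -3.27 (SE 0.18, edgeR adjusted p = 1.43e-07) in the 9 livers. *Pcx*, the pyruvate carboxylase that starts gluconeogenesis from lactate, fell from 606 ± 64.7 to 255 ± 55.1, with a log2 fold change of -1.25 (SE 0.17, edgeR adjusted p = 0.000193), and -1.35 (SE 0.16) in the 9 livers. *Slc16a7*, the transporter MCT2 and a relative of *Slc16a1*, was named after its values were seen and had a log2 fold change of -1.06 (SE 0.27, edgeR adjusted p = 0.00763), and -1.06 (SE 0.30) in the 9 livers. With scaling by total counts *Slc16a7* was at -0.51 and did not pass the test (edgeR adjusted p = 0.155). The remaining lower genes were *Pdp2*, *Gpt2* and *Pdk2*, the last pair at 0.05 each when libraries were scaled by their total counts.

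The higher genes of this list were *Pdhb* and *Gpt*. *Pdhb*, a subunit of pyruvate dehydrogenase, had a log2 fold change of 0.57 (SE 0.14, edgeR adjusted p = 0.00648), and 0.55 (SE 0.14) in the 9 livers. *Gpt*, the cytosolic alanine aminotransferase, had one of 0.43 (SE 0.15, edgeR adjusted p = 0.0294), and 0.38 (SE 0.14) in the 9 livers. Its call was lost when wild-type replicate 2, 3 or 5 or Ndrg3 LKO replicate 3 was left out (edgeR adjusted p from 0.0585 to 0.088) and in the fit without a filter on low counts (edgeR adjusted p = 0.0656).

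Of 9 VEGF ligands and receptors other than *Vegfa* 7 were tested, and 3 were higher and 2 lower, beside 25.6% and 23.0% of all genes (median log2 fold change 0.33); the same 5 were called in the 9 livers. *Flt4* (VEGFR3), *Flt1* (VEGFR1) and *Kdr* (VEGFR2) are receptors of endothelial cells, and *Kdr* is also among the endothelial markers. *Flt4* rose from 5.69 ± 0.351 to 13.5 ± 2.99 TMM-normalized CPM, with a log2 fold change of 1.25 (SE 0.17, edgeR adjusted p = 0.000165), and *Flt1* had one of 0.96 (SE 0.22, edgeR adjusted p = 0.00408); in the 9 livers these were 1.15 (SE 0.16) and 0.99 (SE 0.23). The 10 endothelial markers had a median log2 fold change of 1.09. The coreceptors *Nrp1* and *Nrp2* were lower, with log2 fold changes of -1.59 (SE 0.35, edgeR adjusted p = 0.00332) and -0.67 (SE 0.17, edgeR adjusted p = 0.00588), and of -1.49 (SE 0.37) and -0.64 (SE 0.17) in the 9 livers. With scaling by total counts *Nrp2* was at -0.13 and did not pass the test (edgeR adjusted p = 0.604).

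Of the *Ndrg* family, *Ndrg1*, a known hypoxia-induced gene, rose from 5.76 ± 0.272 to 8.29 ± 1.97 TMM-normalized CPM, with a log2 fold change of 0.52 (SE 0.17, edgeR adjusted p = 0.0233), and 0.37 (SE 0.14) in the 9 livers. Its call was lost when wild-type replicate 2 or 5 or Ndrg3 LKO replicate 1 was left out (edgeR adjusted p from 0.0506 to 0.0595). *Ndrg2*, the most abundant of the family in liver, fell from 1765 ± 133 to 919 ± 308, with a log2 fold change of -0.94 (SE 0.22, edgeR adjusted p = 0.00417) and of -1.16 (SE 0.16) in the 9 livers. *Ndrg4* was too low to be tested. Over all 6 lists, with each gene counted once, 69 genes were tested, and 19 were higher and 19 lower with TMM scaling, 27.5% each, near the 25.6% and 23.0% of all genes tested. In the 9 livers 70 were tested, and 19 (27.1%) were higher and 24 (34.3%) lower, beside 28.4% and 27.2% of all genes. *Ndrg3*, the gene knocked out by design, is among the lower genes in each of these counts and in the count by total-count scaling below. Scaling libraries by their total counts moved the median of all genes tested to 0.56, and 33 list genes (47.8%) were then higher and 9 (13%) lower, beside 52.1% and 8.97% of all genes. With that scaling 10 of the 19 lower genes no longer passed the test. *Hif1an*, *Mxi1*, *Gpt2* and *Pdk2* stood above 0, and *Os9* (edgeR adjusted p = 0.078), *Bnip3l* (0.0943), *Slc16a7* (0.155), *Pdp2* (0.334), *Pfkl* (0.456) and *Nrp2* (0.604) remained below it. *Arnt*, at 0.80 (edgeR adjusted p = 0.0344), and *Bsg*, at 0.41 (edgeR adjusted p = 0.0182), passed it. With 1 liver left out at a time, 7 of the 38 called genes (*Adm*, *Gapdh*, *Gpt*, *Gpt2*, *Ndrg1*, *Pdk2* and *Pfkl*) lost their call at least once, with edgeR adjusted p from 0.0506 to 0.114. Without a filter on low counts *Gapdh* (0.0588), *Gpt* and *Gpt2* (0.0511) lost it.

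**Figure D5:**
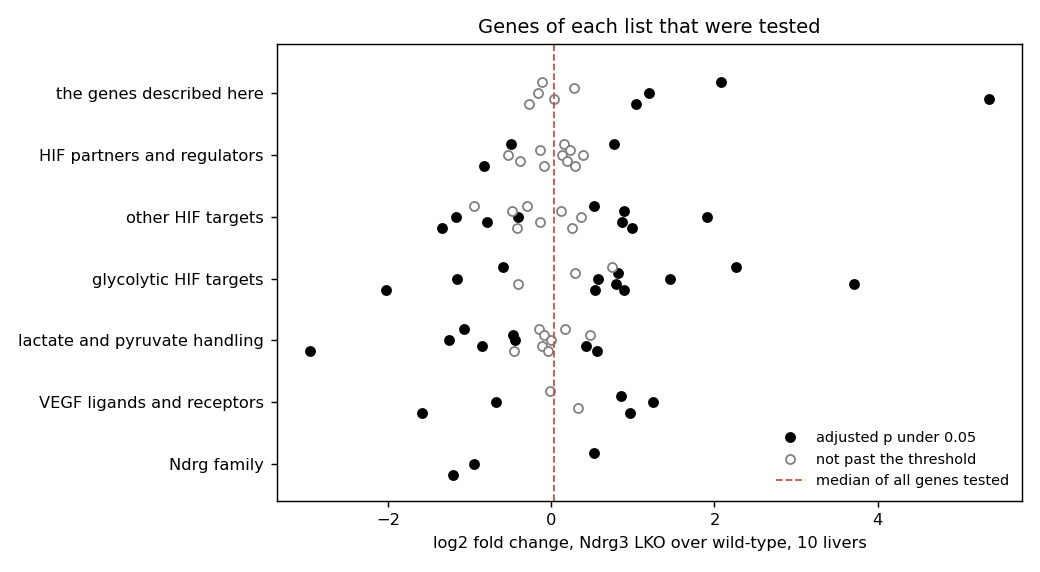
Log2 fold change (Ndrg3 LKO over wild-type, 10 livers) of each tested gene of the lists, with 1 point per gene, filled where the edgeR adjusted p is under 0.05 and open otherwise; the dashed line is the median of all genes tested, 0.03, and the vertical scatter within a row only separates points. Every list holds filled points on both sides of the line except the genes described here, whose 4 filled points are all on the right.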

How the data were processed

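Livers were labelled wild-type or knockout with replicate numbers. By the study's methods, RNA was prepared with an Illumina Stranded mRNA kit and sequenced as 100-base paired-end reads. The authors aligned them to mm9 using STAR, and deposited a value per gene symbol for each liver. The submitters' processing notes name bcl2fastq, Trim Galore 0.6.4, STAR 2.7.3a and Cufflinks 2.2.1, whereas the study's methods give a different version of STAR. The annotation and strand setting are not given in the sources used here. The deposited values carry the name CPM but are whole numbers with differing totals, and were used as counts.

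Genes reaching 1 CPM in 5 or more livers (4 or more when a liver was left out) were fitted with edgeR 4.0.16 (R 4.3.3), TMM and the quasi-likelihood test, with Benjamini-Hochberg adjustment over all genes tested and a threshold of 0.05. The SE was obtained from the log2 fold change and its F statistic. The fit was tested on simulated data. Positions come from GENCODE on NCBIM37 (mm9), in which 20945 of 24052 symbols were found. Levels per kilobase use the union of exons. The floor was 3 counts per library, which covers counting error only.

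Alternatives were other scalings, DESeq2 1.42.0, limma 3.58.1 on log2(CPM + 1), other filters, the replicate number as a block and each liver left out. The genes and lists were chosen with earlier results of these data known. Named in full were the 10 genes and *Ndrg3*; of each list, the 2 called genes that rose most and the 2 that fell most with a mean of at least 1 CPM; of each marker list, the most abundant gene; and the 3 genes closest to *Hif1a* and *Ldha*. No 2 libraries of a group agreed within sampling noise (chi-square per degree of freedom of at least 26).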

Additional observations from a re-analysis of the deposited data

Results flagged for a closer look

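For *Ldhb*, wild-type replicate 5 stood apart from its group, at 8.41 TMM-normalized CPM against 1.97, 1.96, 2.12 and 2.67 in the other wild-type livers, a gap of 0.89 of the group's whole range. It was the only one of 22 groups of 5 livers (*Ndrg3* and the 10 genes, each in wild-type and in Ndrg3 LKO) with a liver beyond Dixon's critical value of 0.71, and chance flags about 1 in 20 groups.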

How the results depend on the processing

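The 4 genes that were higher kept their direction and their call under all alternatives run, with log2 fold changes from 4.95 to 5.97 for *Egln3*, 1.79 to 2.701 for *Ldhb* (the highest without wild-type replicate 5), 1.03 to 1.79 for *Slc16a1* and 0.93 to 1.59 for *Ldha*. Scaling by total counts moved the median of all genes tested from 0.03 to 0.56 and the calls from 2865 higher and 2578 lower to 5834 and 1005. Under it *Hif1a* stood at 0.87 (edgeR adjusted p = 0.028), and *Epas1* at 0.40, *Egln1* at 0.36, *Vhl* at 0.26 and *Hif1an* at 0.044 changed sign; relative to the shifted median *Hif1a* stood at 0.31, *Epas1* at -0.16, *Egln1* at -0.20 and *Vhl* at -0.30. The lists held 33 higher and 9 lower genes under it. *Vegfa* was at -0.0029 without a filter on low counts and between -0.088 and 0.18 with 1 liver left out, *Vhl* between -0.35 and -0.22, and 2 to 4 of the 10 genes had groups that did not overlap, beside 15.8% to 22.4% of all genes tested above and 16.1% to 22.3% below; the cause was not tested. Whether the replicate numbers pair the livers is not stated in the sources used here. Deviations of same-numbered livers correlated at -0.36 to 0.04, and 0 of the 5 wild-type livers correlated best with its own number. A pairing need not show in these correlations, so they do not decide it. With the numbers as a block 4412 genes were called in place of 5443, *Egln3* stood at 5.16 and *Ldha* at 1.05, and 7 of the 38 called list genes lost their call (*Adm*, *Gapdh*, *Gpt*, *Gpt2*, *Ndrg1*, *Pdk2* and *Pgam1*, edgeR adjusted p from 0.0561 to 0.115). *Slc16a3* rests on 2 to 32 counts per liver.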
